A study of Homo sapiens with 6 samples.

Results

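GAS5 and 9 other long noncoding genes that carry small nucleolar RNAs (snoRNAs) in their introns were followed in CAL27 cells, an established squamous carcinoma line from the human tongue. The 10 genes are GAS5, ZFAS1, SNHG1, SNHG3, SNHG5, SNHG6, SNHG8, SNHG12, SNHG15 and EPB41L4A-AS1, out of 58243 genes in the files. They were chosen by name as snoRNA hosts said to be higher with metformin, so their change with the drug is given as a description, without a test. The choice and the data differ for 4 of them: in SNHG1, SNHG3, SNHG12 and SNHG15 the values of the 2 groups overlapped. Cells had been kept for 48 h with 30 mM metformin, a biguanide that inhibits mitochondrial respiration, or with the vehicle, phosphate-buffered saline (PBS), and each group holds 3 mRNA sequencing libraries. All 6 libraries come from this 1 cell line at 1 dose and 1 time, and the labels do not say that the replicates were separate cultures, so p-values measure library-to-library spread, which can be purely technical.

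Most snoRNA hosts are protein-coding genes, and a smaller set, to which the 10 genes belong, is noncoding. A snoRNA is trimmed out of the spliced intron and then guides the chemical modification of ribosomal RNA, as a box C/D type (named SNORD, for methylation) or a box H/ACA type (SNORA, for pseudouridylation). The spliced exons of several hosts carry a short reading frame that ends early, and they are degraded while being translated by nonsense-mediated decay, the pathway that removes RNAs with a premature stop. GAS5 was named for its accumulation in growth-arrested cells. Many hosts also begin with a C and a run of pyrimidines, the terminal oligopyrimidine (TOP) start that is typical of ribosomal protein mRNAs and places their translation under mTOR.

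The first 30 bases of an annotated transcript are shown for 9 of the genes because these starts are a feature that the choice of genes did not use. For each gene the lowest-numbered GENCODE 29 transcript that begins with a C and at least 4 further bases that are each C or T was taken, or the lowest-numbered transcript where no annotated start has such a tract. Capitals mark the tract.
GAS5: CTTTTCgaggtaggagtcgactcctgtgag
ZFAS1: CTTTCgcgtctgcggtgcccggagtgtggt
SNHG8: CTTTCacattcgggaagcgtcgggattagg
SNHG5: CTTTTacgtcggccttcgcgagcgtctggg
SNHG12: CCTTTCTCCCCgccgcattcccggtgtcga
SNHG3: CCTTTTTggagacagattcgcagtggtcgc
SNHG1: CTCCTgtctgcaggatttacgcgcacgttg
SNHG15: ccgccatcctgggccccacgtgttgcctga
EPB41L4A-AS1: tgtcgggtcccaaaatacgtggtctaaagt
Of the 10 genes, 8 (80.0%) had at least 1 annotated transcript that starts with the tract, against 15.4% of the 13437 tested genes, which average 1 FPKM or more over the libraries, and 6.0% of the 1649 long noncoding genes among them. All 10 hosts were tested. Genes with many annotated transcripts have more chances of a match, and counted over transcripts the share was 16.8% of 131 for these genes against 2.67% of 107121. Among the 77 ribosomal protein genes it was 84.4% of genes. Among the 15 other tested noncoding hosts described below it was 40.0% of genes and 12.8% of 125 transcripts. An annotated tract start was found for 5 of the 6 hosts whose metformin libraries all lay above the PBS libraries. It was also found for 3 of the 4 hosts whose groups overlapped. The tract was present in 6 of 29 GAS5 transcripts, 3 of 10 of ZFAS1, 3 of 5 of SNHG6, 3 of 23 of SNHG5, 4 of 17 of SNHG12 and 1 each of SNHG1, SNHG3 and SNHG8. Annotated starts are ragged, and which of them CAL27 cells use was not measured.

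A RefSeq promoter window (250 bases before to 50 after the RefSeq start, build GRCh38.p14) was found for 8 of the 10 genes. The windows of ZFAS1 and SNHG12 are printed because they hold the same elements in front of genes that differed in their response. Capitals mark the TATA-like motif TATATAA, searched on both strands, and the pyrimidine tract of the transcripts above. The first lies at chr20:49278392-49278691 on the plus strand and the second at chr1:28581824-28582123 on the minus strand.
ZFAS1: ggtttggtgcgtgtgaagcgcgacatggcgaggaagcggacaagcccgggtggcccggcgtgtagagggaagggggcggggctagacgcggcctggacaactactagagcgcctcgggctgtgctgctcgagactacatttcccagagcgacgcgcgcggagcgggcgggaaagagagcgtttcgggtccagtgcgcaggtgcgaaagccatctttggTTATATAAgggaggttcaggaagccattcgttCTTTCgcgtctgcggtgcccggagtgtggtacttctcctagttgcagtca
SNHG12: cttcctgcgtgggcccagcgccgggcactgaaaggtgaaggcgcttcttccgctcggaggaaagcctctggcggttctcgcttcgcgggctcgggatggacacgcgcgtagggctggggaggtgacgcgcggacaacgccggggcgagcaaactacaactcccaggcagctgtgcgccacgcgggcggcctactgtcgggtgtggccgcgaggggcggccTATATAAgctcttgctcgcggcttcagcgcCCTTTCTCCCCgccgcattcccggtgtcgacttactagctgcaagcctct
TATATAA was found in 3 of the 8 windows (ZFAS1, SNHG5 and SNHG12) and in 2.57% of 35116 RefSeq windows of the same length. In ZFAS1 it occurs on both strands in overlapping positions. The E-box CACGTG, which MYC binds, was in none of the 8 windows and in 7.26% of all. SNHG6 and SNHG15 had no window, and the SNHG15 transcript start shown above does hold CACGTG. TGATGNAAN, a core of the response element of ATF4 and its partners, was in none of the 8 and in 3.61% of all. The GAS5 window (chr1:173868996-173869295, minus strand) lies wholly upstream of the GENCODE gene and does not hold the bases around the GAS5 start shown above. A match or its absence describes the letters of these windows and nothing about binding.

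The genes differ in how they are built. GAS5 (ENSG00000234741.7, chromosome 1, 173863900 to 173868882 in GRCh38, minus strand) encloses 10 box C/D snoRNAs and 1 box H/ACA snoRNA in RefSeq, and its longest GENCODE transcript by exonic bases has 8 exons. SNHG1 (ENSG00000255717.6, chromosome 11, 62851988 to 62855914, minus) encloses 8 named box C/D snoRNAs. SNHG12 (ENSG00000197989.13, chromosome 1, 28578538 to 28583132, minus) encloses 3 of the H/ACA and 1 of the C/D type, and ZFAS1 (ENSG00000177410.12, chromosome 20, 49278178 to 49295738, plus) encloses the 3 C/D snoRNAs SNORD12, SNORD12B and SNORD12C. SNHG3 (ENSG00000242125.3, chromosome 1, 28505980 to 28510892, plus) holds SNORA73A and SNORA73B, and SNHG5 (ENSG00000203875.10, chromosome 6, 85660950 to 85678748, minus) holds SNORD50A and SNORD50B. The remaining 4 hold 1 snoRNA each: SNORD87 in SNHG6 (ENSG00000245910.8, chromosome 8, 66921684 to 66926398, minus) and SNORA24 in SNHG8 (ENSG00000269893.6, chromosome 4, 118278709 to 118279823, plus). The others are SNORA9 in SNHG15 (ENSG00000232956.8, chromosome 7, 44983023 to 44986961, minus) and SNORA13 in EPB41L4A-AS1 (ENSG00000224032.6, chromosome 5, 112160526 to 112164276, plus).

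Levels are given in FPKM, a fragment count divided by transcript length and by the library's mapped fragments, so genes can be compared per length. The values summed to between 200842 and 208899 per library. The depth at which single-transcript genes would most often hold 1 fragment gave an estimated 7820000 to 8810000 fragments per library. At that depth the exons of SNHG8 would hold about 79.9 fragments in a PBS library and those of GAS5 about 605, which is a rough guide because these counts use all annotated exon bases. The squamous and epithelial markers were present at a sum of 1361 to 1445 FPKM with PBS and 775.3 to 800.4 with metformin. Limma called 7 of 10 lower and 2 (EPCAM and CDH1) higher, beside 25.2% lower and 31.0% higher of all tested genes. KRT14 (19.1-fold lower) and KRT5 (6.77-fold lower) changed furthest. In bulk libraries fewer cells of a type and less RNA per cell cannot be told apart, and the part of these shifts in the host values was not tested. Summed fibroblast markers were at 1.54 to 2.74 FPKM, with DCN at 0 in all 6 libraries, and blood cell markers at 1.93 to 4.10, and the endothelial genes PECAM1 and VWF were at or below 0.158 FPKM in every library, although CDH5 had 5.87 to 6.77 FPKM with PBS and 1.98 to 2.12 with metformin (limma adjusted p = 3.97e-05). The fibroblast marker COL1A1 rose 1.75-fold from 1.36 ± 0.2 FPKM (limma adjusted p = 0.00563) and the blood cell marker CD68 rose 1.55-fold from 2.15 ± 0.207 FPKM (limma adjusted p = 0.00611), and their part in the host values was not tested. In both groups the library numbered 3 had more of the nonpolyadenylated RNA RN7SK, at 14.1 FPKM with PBS and 15.6 with metformin against 3.10 to 3.54 in the other 4. RN7SL1, the RNA of the signal recognition particle, was also highest in these libraries, at 118.6 and 130.5 FPKM against 29.8 to 50.9.

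With PBS the GAS5 level was 19.9, 20.2 and 20.3 FPKM, and it was 117.3, 122.6 and 106.2 with metformin. Every metformin library was far above every PBS library, and the PBS values differed by little. The means of 20.1 ± 0.231 (SD, n = 3) and 115.3 ± 8.37 (n = 3) gave a 5.73-fold ratio and a difference of 2.46 (SE 0.06) in log2(FPKM + 1), a scale that understates the change of low values. Ordered by that difference, GAS5 stood 12th of the 1649 tested long noncoding genes and 59th of all 13437 tested genes. It moved from the third to the first place among the 10 hosts and from between 11.9% and 12.2% of their summed FPKM to between 30.0% and 31.5%.

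ZFAS1, the host of the SNORD12 group, had 23.8, 23.1 and 26.9 FPKM with PBS and 71.9, 74.0 and 74.3 with metformin. The metformin libraries lay close together and all above the PBS libraries. The ratio of the means was 2.99, from 24.6 ± 2.05 to 73.4 ± 1.32 FPKM. SNHG8, the host of SNORA24, had 9.81, 10.98 and 10.5 FPKM with PBS and 26.9, 32.6 and 22.9 with metformin. Its metformin libraries were again all higher but more spread, with an SD of 4.86 around 27.5 FPKM and a ratio of 2.63. SNHG6, the host of SNORD87, started as the highest of the 10 genes, at 42.0, 42.2 and 38.9 FPKM with PBS, and had 79.2, 77.3 and 77.2 with metformin. The groups were well apart and the ratio was 1.90, smaller than for the 3 genes above.

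SNHG5, the host of SNORD50A and SNORD50B, had 10.4, 9.51 and 10.7 FPKM with PBS and 17.6, 18.2 and 13.4 with metformin. EPB41L4A-AS1, the host of SNORA13, had 5.27, 6.01 and 5.51 with PBS and 6.96, 10.8 and 10.2 with metformin. In both genes every metformin library was above every PBS library, but the lowest metformin library (replicate 3 for SNHG5 and replicate 1 for EPB41L4A-AS1) was near the PBS range. The ratios of the means were 1.61 and 1.66, with differences of 0.62 (SE 0.12) and 0.63 (SE 0.15) in log2(FPKM + 1).

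**Figure D1:**
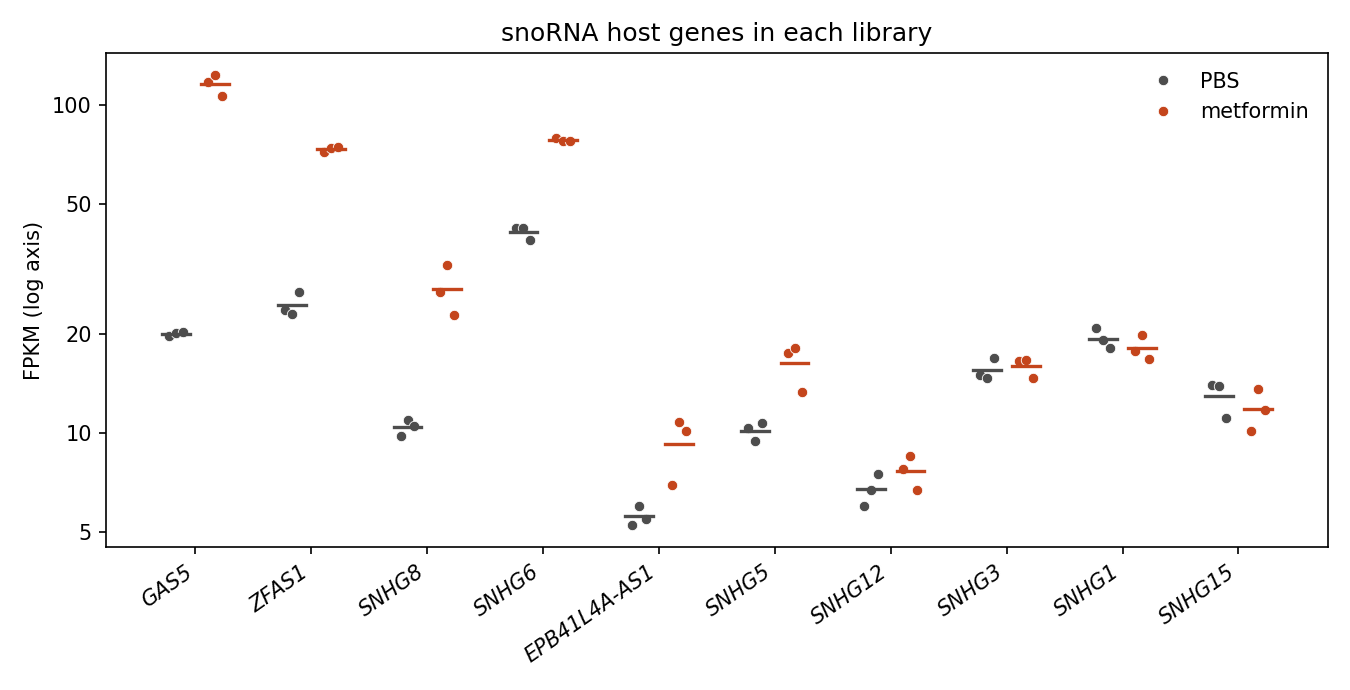
FPKM of the 10 snoRNA host genes on a log axis, ordered by the ratio of metformin to PBS means; each point is a library and each bar the mean of 3. GAS5, ZFAS1, SNHG8, SNHG6, EPB41L4A-AS1 and SNHG5 have all metformin points above all PBS points, while the points of SNHG12, SNHG3, SNHG1 and SNHG15 overlap.

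The other 4 hosts did not follow. SNHG1, which carries the largest set of snoRNAs after GAS5, had 21.0, 19.2 and 18.2 FPKM with PBS and 17.9, 19.98 and 16.8 with metformin. SNHG3, the host of the SNORA73 pair, had 15.02, 14.8 and 16.9 with PBS and 16.6, 16.8 and 14.7 with metformin. For both the spread within a group was as large as the distance between the groups, with differences of -0.09 (SE 0.08) and 0.04 (SE 0.08) in log2(FPKM + 1).

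SNHG15, the host of SNORA9, had 14.0, 13.9 and 11.1 FPKM with PBS and 10.2, 13.7 and 11.8 with metformin. SNHG12, with its 4 snoRNAs, had 6.03, 6.74 and 7.52 with PBS and 7.79, 8.55 and 6.73 with metformin. The means were 13.0 against 11.9 FPKM and 6.76 against 7.69 FPKM, in opposite directions and within the spread of the libraries. GAS5 and SNHG1 had overlapping values in the PBS libraries, at means of 20.1 and 19.4 FPKM, and differed 115.3 to 18.2 with metformin.

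Thus 6 of the 10 hosts had every metformin library above every PBS library, where 35.7% of all tested genes and 41.1% of tested long noncoding genes had the same order. Since the genes were picked for being higher, nothing is read from that count. The median difference was 0.62 in log2(FPKM + 1) for the 10 hosts, 0.06 for all tested genes and 0.24 for the long noncoding ones. Summed over the 10, the level was 167.1, 166.6 and 166.6 FPKM with PBS and 372.1, 394.4 and 354.3 with metformin. That sum stood nearly still between the PBS libraries and held 0.0798% to 0.082% of all FPKM, against 0.176% to 0.194% with metformin.

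**Figure D2:**
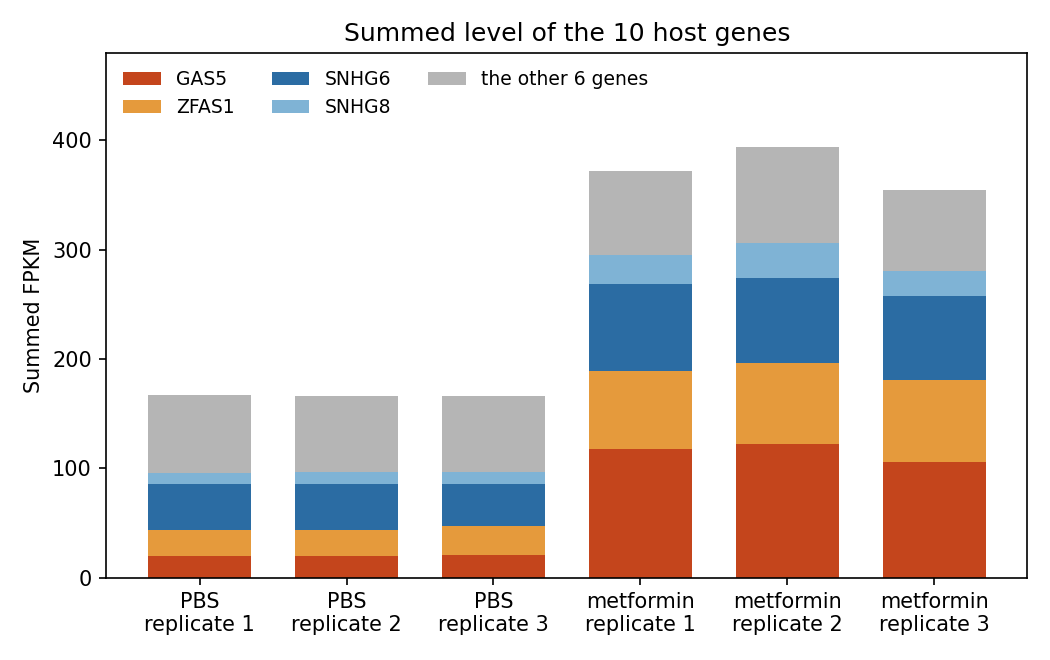
Summed FPKM of the 10 host genes in each of the 6 libraries, with bars stacked by gene and starting at 0. The metformin bars reach 354.3 to 394.4 FPKM against 166.6 to 167.1 with PBS, and GAS5 takes 30.0% to 31.5% of them against 11.9% to 12.2%.

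In the PBS libraries the order of the levels was SNHG6, ZFAS1, GAS5, SNHG1, SNHG3, SNHG15, SNHG8, SNHG5, SNHG12 and EPB41L4A-AS1. Only GAS5 with SNHG1 and SNHG8 with SNHG5 overlapped in range among the neighbours of that order. With metformin it was GAS5, SNHG6, ZFAS1, SNHG8, SNHG1, SNHG5, SNHG3, SNHG15, EPB41L4A-AS1 and SNHG12, and here SNHG1 with SNHG5, SNHG5 with SNHG3, SNHG15 with EPB41L4A-AS1, and EPB41L4A-AS1 with SNHG12 overlapped. Among metformin libraries, replicate 3 was the lowest in 7 of the 10 genes and replicate 2 the highest in 8. Without both libraries numbered 3, which hold more RN7SK, the differences in log2(FPKM + 1) were 2.52 for GAS5, 1.599 for ZFAS1, 1.43 for SNHG8, 0.79 for SNHG5 and 0.31 for SNHG12. They were 0.88 for SNHG6, 0.55 for EPB41L4A-AS1, 0.16 for SNHG3, -0.08 for SNHG1 and -0.23 for SNHG15, so 2 of the 6 separated hosts (SNHG6 and EPB41L4A-AS1) had smaller differences without these libraries.

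The genes whose profile over the 6 libraries was most like that of GAS5 were named by the Euclidean distance between log2(FPKM + 1) profiles centred on their own means, among other genes that average 5 FPKM or more. They were RNA5SP236, a 5S ribosomal RNA pseudogene inside LINC02577 on the opposite strand (distance 0.0853), SCEL, which encodes sciellin of the cornified envelope (0.121), the phosphatase genes DUSP1 (0.157) and DUSP5 (0.193), and the cytokine receptor gene IL20RB (0.209). The nearest host was ZFAS1, at 1.14, with a smaller difference between the groups. With 2 groups of 3 libraries such likeness mostly restates the difference between the groups.

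Mature snoRNAs have no poly(A) tail and are too short for these libraries, and the values the files list for them often differed in direction from the host. GENCODE 29 places 22 snoRNA genes inside 9 of the hosts and none inside GAS5, so the GAS5 snoRNAs have no value here. SNORD26 in SNHG1 was listed at 19.9, 19.9 and 19.0 FPKM with PBS and 8.33, 10.98 and 11.8 with metformin, a fall (limma adjusted p = 0.000971) inside a host whose groups overlapped. SNORD87 in SNHG6 had 9.78, 7.41 and 8.67 against 8.03, 8.04 and 7.44, with overlapping groups beside a host that was apart. SNORD12C in ZFAS1 had 5.28, 1.65 and 1.52 FPKM with PBS and 1.33, 1.07 and 0.774 with metformin. All metformin values were below the PBS values while the host was higher, and the difference did not pass (limma adjusted p = 0.106). Listed values as small as 1.2e-05 FPKM for a SNORA16A copy in SNHG12 are far below 1 fragment, so the deposited values hold parts of fragments. Whether these were divided between overlapping genes or between copies of a sequence was not tested. Of the 22, 16 lie inside an annotated exon of a host transcript that retains the intron, and their fragments may belong to the host.

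Genes that share a start region or exon bases with a host were compared next, with limma on all tested genes. ZNFX1 starts 248 bases from ZFAS1 on the opposite strand and shares 249 exon bases with it. It rose 1.38-fold, from 14.4 ± 0.0926 to 19.9 ± 0.679 FPKM (limma adjusted p = 0.000541), against the 2.99-fold ratio of ZFAS1. SLC3A2, the heavy chain of amino acid transporters, starts 188 bases from SNHG1 in the opposite direction and had 72.5 ± 3.71 and 80.3 ± 4.03 FPKM (limma adjusted p = 0.0766). RCC1, which shares 242 exon bases on the same strand with SNHG3 and starts 37 bases away, had 36.1 ± 7.59 and 27.8 ± 4.51 FPKM (limma adjusted p = 0.128), so the values of the pair cannot be fully told apart. TRNAU1AP shares 8 exon bases with SNHG12 and EPB41L4A shares 1659 with EPB41L4A-AS1, both on the opposite strand. Their levels of 3.18 and 2.39 FPKM and of 1.46 and 1.22 FPKM did not pass (limma adjusted p = 0.068 and 0.211). No gene with a mean of 1 FPKM overlapped GAS5, SNHG5 or SNHG15 or started within 2000 bases of them, and GAS5-AS1 had 0.175 to 1.59 FPKM over the 6 libraries. The sources used here do not say whether strand was used in counting.

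Other noncoding hosts were read from a list of 18 names, of which 15 were tested. Limma called 5 of them higher and 2 lower at an adjusted p below 0.05, against 31.0% higher and 25.2% lower of all tested genes and 37.1% and 12.5% of the long noncoding ones, and 8 did not pass. The median difference was 0.16 in log2(FPKM + 1). C6orf48, also known as SNHG32 and typed as protein-coding in GENCODE 29, rose 2.71-fold, from 23.7, 22.04 and 24.0 to 63.2, 69.9 and 55.9 FPKM (limma adjusted p = 3.33e-05). LRRC75A-AS1, also known as SNHG29, rose 2.32-fold, from 40.6, 45.4 and 44.3 to 100.8, 104.6 and 96.7 FPKM (limma adjusted p = 1.31e-05). Both stood between SNHG6 and ZFAS1 in the size of their difference. SNHG26, SNHG7 and SNHG17 rose by less, between 1.24-fold and 1.52-fold. SNHG4 fell by 0.55 in log2(FPKM + 1), from 9.42, 8.62 and 11.7 to 4.75, 7.66 and 7.08 FPKM (limma adjusted p = 0.0335). SNHG10 was the other gene below the threshold, with means of 2.23 and 1.37 FPKM. Without PBS replicate 3, without metformin replicate 1 or without both libraries numbered 3, 0 hosts of the list were called lower, and leaving out any other library kept 1. SNHG16 and SNHG19 had their lowest metformin value in replicate 3, at 3.86 and 9.26 FPKM against 7.91 to 8.33 and 16.9 to 19.2 in the other 2 metformin libraries, and SNHG16 was also lowest in PBS replicate 3, at 4.68 FPKM.

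**Figure D3:**
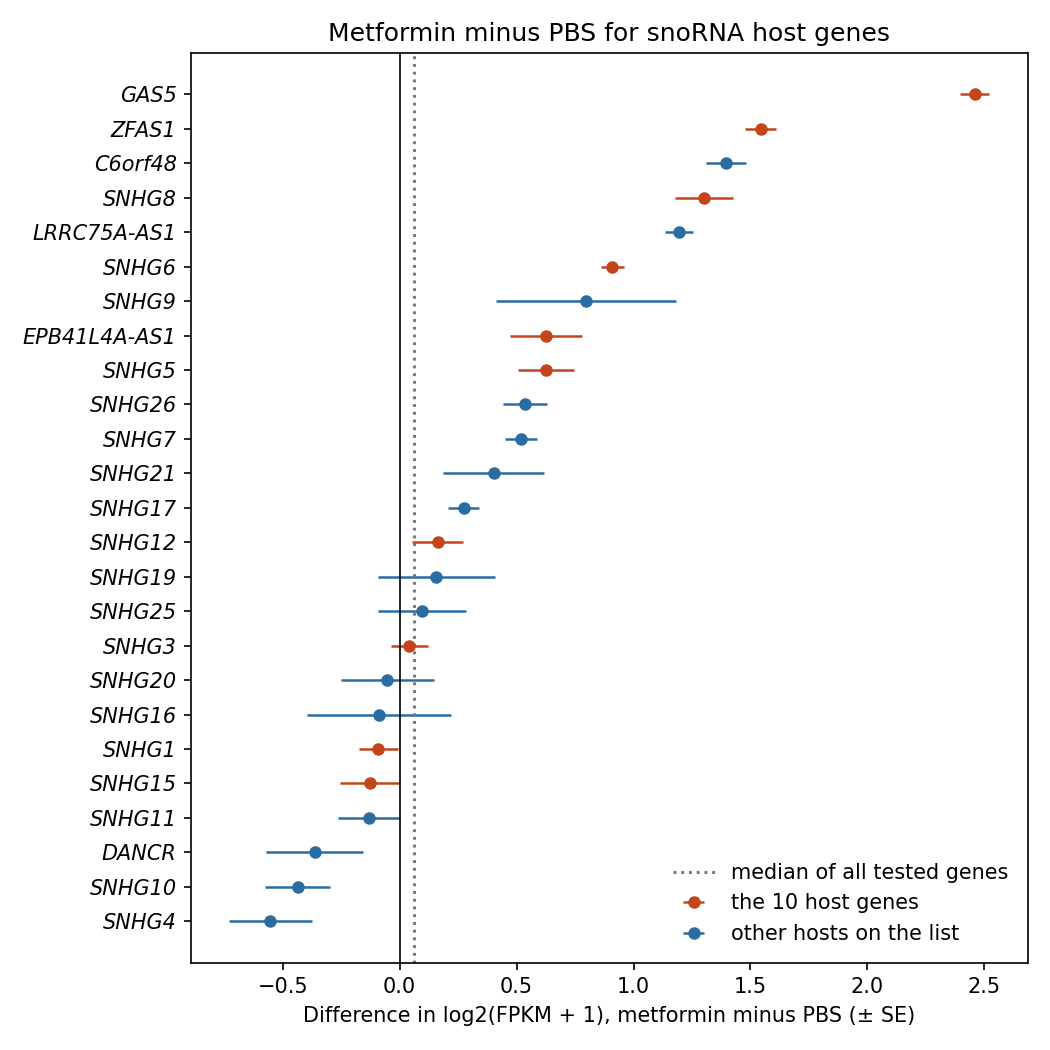
Difference in log2(FPKM + 1), metformin minus PBS, with its SE, for the 10 host genes and the 15 other tested hosts of the list, sorted by size; the dotted line is the median of all tested genes. The hosts spread from -0.55 for SNHG4 to 2.46 for GAS5, with SNHG1, SNHG3 and SNHG15 beside 0.

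Hosts were also read from the annotation, as genes with a same-strand snoRNA gene that is not wholly inside an exon of any annotated transcript. This leaves out hosts whose snoRNAs all lie in a retained intron, as SNHG5, SNHG6, SNHG8 and SNHG15 would be. Of 175 protein-coding hosts, 59 were called higher and 61 lower by limma, beside 31.0% higher and 25.2% lower of all tested genes. Their median difference of 0.02 in log2(FPKM + 1) was near the 0.06 of all tested genes. The largest changes were those of PPAN-P2RY11, a read-through gene that shares exons with its neighbours and went from 2.02 ± 1.26 to 18.2 ± 6.30 FPKM (limma adjusted p = 0.000992), and NCAPD2, a condensin subunit, which fell 3.68-fold from 50.6 ± 1.93 to 13.7 ± 1.04 FPKM (limma adjusted p = 5.1e-06). Of 17 noncoding hosts beside the 10 genes, 5 were called higher and 3 lower, against 37.1% and 12.5% of the tested long noncoding genes. The class is not independent of the list: DANCR, SNHG4, SNHG10, SNHG11, SNHG16, SNHG17, SNHG19, SNHG21, SNHG25 and SNHG26 are in both. LRRC75A-AS1 and SNHG7, called higher on the list, are not in the class. LINC01932 and AC134043.1, both among the 5, overlap on the same strand and may count 1 locus more than once. The count of 3 fell to 1 without PBS replicate 3 or without metformin replicate 1. With only snoRNAs that have an approved name, 12 noncoding hosts were tested, 2 of them called higher and 2 lower. With a snoRNA in an intron of the longest transcript, 19 were tested, 7 called higher and 3 lower. With any same-strand snoRNA inside the span, 21 were tested, 7 called higher and 3 lower.

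Genes for proteins that bind snoRNAs or assemble them into particles were more often lower than higher. Of 18 tested, 9 were called lower and 1 higher, beside 25.2% lower and 31.0% higher of all tested genes, with a median of -0.23 in log2(FPKM + 1) against 0.06. NOP56, a core protein of box C/D particles, fell 2.13-fold, from 33.8 ± 0.785 to 15.8 ± 0.737 FPKM (limma adjusted p = 1.76e-05). RUVBL2, a helicase-like subunit of the assembly complex, fell 2.00-fold from 48.6 ± 2.40 FPKM (limma adjusted p = 3e-05), and FBL, the methylase fibrillarin, fell 1.64-fold from 49.3 ± 2.47 FPKM. ZNHIT6, an assembly factor of box C/D particles, was the member called higher, from 7.70 ± 1.80 to 12.2 ± 0.286 FPKM.

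Factors of nonsense-mediated decay went both ways: of 18, 8 were called higher and 4 lower, not far from the 31.0% and 25.2% of all tested genes, with a median of 0.25. Without both libraries numbered 3 the counts were 5 and 2. SMG1, the kinase that phosphorylates UPF1, rose 1.77-fold, from 10.6 ± 1.21 to 18.7 ± 0.675 FPKM (limma adjusted p = 0.000418). Parts of the exon junction complex differed in direction: MAGOHB fell 1.77-fold, EIF4A3 1.57-fold and MAGOH 1.19-fold, CASC3 rose 1.59-fold (limma adjusted p = 0.000129), and RBM8A did not pass (limma adjusted p = 0.183). UPF1, the central helicase, had 23.5 ± 1.04 and 24.4 ± 0.422 FPKM and did not pass (limma adjusted p = 0.445). Of 7 coding transcripts known as targets of this decay, 5 were called higher and 0 lower, and 2 did not pass. Of all tested genes, 31.0% were called higher and 25.2% lower. The 7 had a median of 0.72 in log2(FPKM + 1), against 0.06 for all tested genes. UPP1, a uridine phosphorylase, rose 10.1-fold from 15.4 ± 0.912 FPKM, and ATF3, a stress transcription factor, rose 7.03-fold from 4.88 ± 1.63 FPKM. The other genes called higher were GADD45A (5.16-fold), ATF4 (1.65-fold) and TBL2 (1.31-fold). ATF4 itself is thus on the list, and ATF3 is also a target of the ATF4 stress pathway. The list was chosen with earlier results known.

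Ribosomal protein genes, which share the TOP start with many hosts, were called higher in 56 of 77 and lower in 5. Of all tested genes, 31.0% were called higher and 25.2% lower, a background that also applies to the TOP lists below. The median of the 10 hosts, which were picked for being higher, was 0.62, and that of the ribosomal protein genes was 0.35. RPS27 and RPL37 rose 1.75-fold and 1.72-fold, the largest changes among them, and many of these genes have pseudogenes with which fragments can be shared. Of 15 TOP mRNAs that are not ribosomal proteins, 4 were called higher and 5 lower (median 0.07), and 2 were called higher without PBS replicate 1 or without PBS replicate 3. HNRNPA1, a splicing regulator, fell 3.72-fold from 164.8 ± 3.03 FPKM, and NPM1, a nucleolar chaperone, fell 1.68-fold from 237.1 ± 8.19 FPKM. Of 11 regulators of TOP mRNAs, 2 were called higher and 2 lower. CNBP rose 1.51-fold and LARP1B, a relative of LARP1, rose 1.51-fold. SSB, the La protein, fell 1.33-fold and RPTOR fell 1.31-fold (limma adjusted p = 0.011). LARP1, which binds the TOP start when mTOR is off, had 39.6 ± 2.49 and 40.0 ± 1.48 FPKM (limma adjusted p = 0.846).

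GAS5 RNA is known to bind the glucocorticoid receptor as a decoy, and the receptor and its target genes were listed for that reason. NR3C1, the receptor gene, rose 1.53-fold, from 6.81, 5.90 and 6.37 to 9.32, 9.61 and 10.3 FPKM (limma adjusted p = 0.000907). Of 7 tested genes of this list, 5 were called higher and 2 lower, beside 31.0% higher and 25.2% lower of all tested genes. DUSP1 rose 6.22-fold to 29.3 ± 1.599 FPKM, whereas SGK1, a kinase induced by the receptor, fell 3.07-fold from 13.4 ± 2.60 FPKM, and FKBP5, a receptor co-chaperone, fell 2.72-fold from 5.09 ± 0.485 FPKM. TSC22D3, KLF9 and PER1 were the other targets called higher, at 2.64-fold, 2.18-fold and 2.09-fold. The targets thus did not share a direction.

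**Figure D4:**
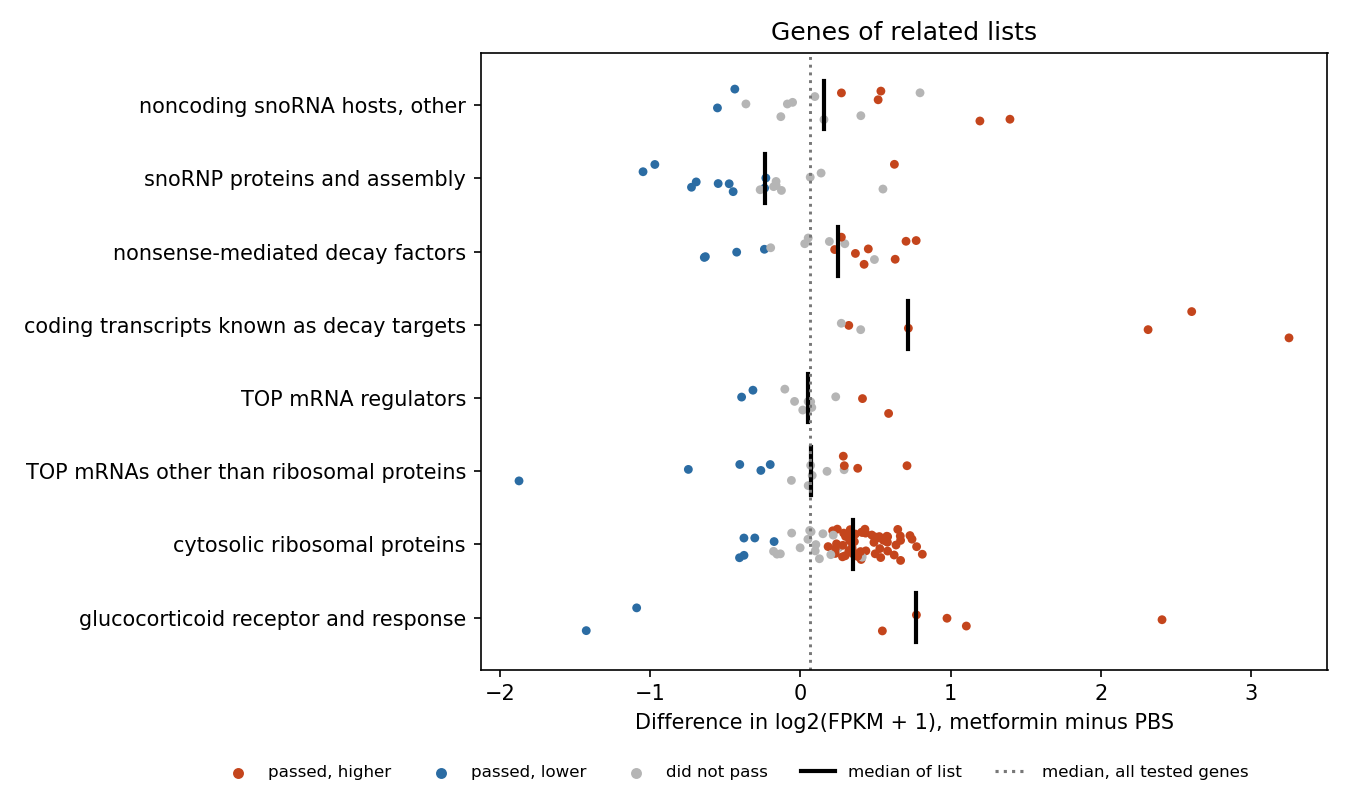
Difference in log2(FPKM + 1), metformin minus PBS, for each tested gene of 8 lists; colour shows whether limma's adjusted p was below 0.05, the black bar is the list's median and the dotted line the median of all tested genes. SnoRNP proteins lie mostly left of the line (median -0.23) and ribosomal proteins right of it (median 0.35).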

How the data were processed

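For each of the 6 mRNA libraries the authors deposited a table of FPKM values by gene, as the file headers name them. GRCh38 is the build in the submitters' processing notes. The aligner, counting tool, strand setting and annotation release were not given in sources used here. Symbols, types and coordinates came from GENCODE release 29 by identifier without version (57980 of 58243 matched). The 13437 genes that average 1 FPKM or more were fitted as log2(FPKM + 1) with limma 3.58.1 in R 4.3.3 (lmFit, eBayes with trend), with group as the only term. The test was two-sided, with Benjamini-Hochberg adjustment over all tested genes and a threshold of 0.05. The fit was tested on simulated data. Other steps used Python 3.11.15 with pandas 2.3.3 and NumPy 2.4.6. Fragment depth was estimated in genes with a single transcript and a value above 0. For each, the depth at which its FPKM would equal 1 fragment was computed, and the most frequent depth was taken. FPKM depends on all other genes of a library, so abundant transcripts that change shift the values of the others.

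The 10 genes and the lists were chosen with earlier results of these data known. Named are all 10 genes, in each list and host class the 2 passing genes with the largest differences (4 for noncoding hosts), genes that overlap or start near a host, and the 5 nearest to GAS5, except that a decay factor the rule names is not reported here. FBL, ZNHIT6, MAGOHB, EIF4A3, MAGOH, CASC3, RBM8A, UPF1, SSB, LARP1, NR3C1, FKBP5, EPCAM, CDH1, DANCR and the SNHG genes outside the 10 were added after their values were seen. So were RPTOR, TSC22D3, KLF9, PER1, GADD45A, ATF4 and TBL2. Alternatives were other pseudocounts, filters, scalings, priors, a replicate block and each library left out. Chosen after seeing the data were leaving out both libraries numbered 3 and further definitions of a host.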

Additional observations from a re-analysis of the deposited data

How the results depend on the processing

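Of the 10 hosts, 6 or 7 were apart from PBS with any library left out. That count could not fall, because removing a library cannot make separate groups overlap. The median difference of the 10 ranged from 0.531 to 0.687. Of 170 host differences under alternatives, 165 moved by less than the replicate SD. GAS5 went from 2.46 to 2.38 and SNHG6 from 0.91 to 0.83 with median-of-ratios scaling, and the difference of SNHG3 turned from 0.04 to -0.03 there. Scaling moved the median of all genes by -0.0685 to 0.0217. Median-of-ratios scaling gave 3610 genes called higher and 3863 lower, in place of 4169 and 3380. Leaving out 1 library gave 6663 to 6886 calls of 7549, 3641 to 3817 higher.

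Restriction to genes that average 5 FPKM or more gave 4738 calls, 2401 of them higher. Under that filter the noncoding annotated hosts gave 2 higher and 1 lower, other noncoding hosts 1 lower, TOP regulators 1 higher and 1 lower, decay factors 2 lower, and the glucocorticoid list 3 higher and 1 lower. Without any filter, noncoding annotated hosts gave 1 lower, other noncoding hosts 0 lower and ribosomal proteins 3 lower. Ribosomal proteins gave 8 lower with median-of-ratios and 3 with quantile scaling. Without both libraries numbered 3, calls lower were 1 for noncoding annotated hosts, 0 for other noncoding hosts, 1 for TOP regulators and 2 for decay factors, with 5 decay factors higher. Annotated noncoding hosts of a snoRNA with an approved name gave 2 higher. These lists are small, fewer genes or libraries enter, and other causes were not tested. With 1 library left out, noncoding annotated hosts gave 1 to 2 lower, other noncoding hosts 0 to 1 lower, TOP mRNAs 2 to 6 higher and snoRNP genes 1 to 2 higher.

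With the replicate block, other noncoding hosts gave 1 lower in place of 2. The labels give the libraries only a shared number, although both libraries numbered 3 had high RN7SK and RN7SL1. Over all tested genes the correlations of same-numbered deviations were -0.000355, 0.0304 and -0.0105, and only the libraries numbered 2 correlated best with their own number. Depth limits the low hosts, SNHG8 above all.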

Other observations

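A pattern noticed after the values were seen is a start of CTTT. At least 1 annotated transcript began with CTTT in 5 of the 6 hosts with separate groups (GAS5, ZFAS1, SNHG5, SNHG6 and SNHG8) and in 0 of the 4 whose groups overlapped, against 4.67% of all tested genes. In the 15 other tested noncoding hosts the pattern did not recur. Of the 5 with such a start, LRRC75A-AS1 was called higher and SNHG4 lower, and SNHG16, SNHG19 and SNHG25 did not pass, while the remaining hosts called higher (C6orf48, SNHG7, SNHG17 and SNHG26) had none.

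Among noncoding genes that hold an annotated snoRNA and are not usually counted as hosts, LINC01932 went from 0.313, 0.447 and 0.198 FPKM with PBS to 4.05, 5.30 and 3.51 with metformin. AC134043.1, whose span holds LINC01932 on the same strand so that the values may not be separate, went from 0.234, 0.163 and 0.358 to 4.79, 1.68 and 2.89, and UBA6-AS1 from 0.492, 1.22 and 0.931 to 2.33, 2.25 and 2.41. MIR31HG, the host transcript of a microRNA, had 6.13, 4.50 and 6.44 FPKM with PBS and 3.06, 2.99 and 2.63 with metformin. All 4 passed limma's test at an adjusted p below 0.05.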
